A study of Arabidopsis thaliana with 48 samples.

Results

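Aquaporins are the membrane channels through which plants move water and small neutral solutes between cells and compartments. The family described here comprises 35 loci of Arabidopsis thaliana among 33602 targets counted, chosen by locus identifier: 13 plasma membrane intrinsic proteins (PIP), 10 tonoplast intrinsic proteins (TIP), 9 nodulin 26-like intrinsic proteins (NIP) and 3 small basic intrinsic proteins (SIP). RNA was sequenced from roots and shoots of 18-day-old seedlings, 48 libraries in 16 groups of 3 biological replicates. The genotypes were T-DNA line eil1 (AT2G27050, SALK_042113), T-DNA line eil3 (AT1G73730, SALK_089129), the cross of both, eil3 eil1, and Col-0, the wild type. Both loci encode EIN3-like transcription factors: EIL1 acts in the ethylene pathway, while EIL3, or SLIM1, acts when sulfur is scarce. Each genotype grew at -S, with 0.015 mM MgSO4 and 0.75 mM MgCl2, and at +S, with 0.75 mM MgSO4, so the effects of low sulfate and of added chloride cannot be told apart. The comparisons ask which aquaporin transcripts changed at low sulfate in each organ, and whether those changes differed in the mutant lines.

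PIPs sit in the plasma membrane, where PIP2 members form water channels alone and PIP1 members mostly act in heteromers with PIP2 members. TIPs sit in the vacuolar membrane, NIPs carry solutes such as boric acid, glycerol and metalloids as well as water, and SIPs sit in the endoplasmic reticulum. Roots owe much of their water permeability to PIPs, and in barley that permeability is known to drop when sulfate is withheld.

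The pore of an aquaporin is lined by a pair of short loops that usually end on the residues asparagine, proline and alanine, the NPA box. The codons of the first box are shown because the SIPs, to which the aquaporin with the largest sulfate response belongs, differ from the rest of the family there. Each line gives 33 bases of coding sequence from RefSeq (TAIR10.1), 5′ to 3′, with the 3 box codons in capitals.
SIP1-2: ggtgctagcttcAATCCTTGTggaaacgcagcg
SIP1-1: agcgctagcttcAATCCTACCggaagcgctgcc
SIP2-1: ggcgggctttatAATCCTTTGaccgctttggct
NIP5-1: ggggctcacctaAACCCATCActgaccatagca
NIP7-1: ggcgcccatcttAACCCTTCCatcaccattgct
NIP6-1: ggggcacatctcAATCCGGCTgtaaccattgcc
TIP2-1: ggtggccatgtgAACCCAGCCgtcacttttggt
PIP1-3: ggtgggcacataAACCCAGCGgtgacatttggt
PIP2-8: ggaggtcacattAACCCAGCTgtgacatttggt
The third box codon encodes alanine in 30 of the 35 members, PIP1-3, PIP2-8, TIP2-1 and NIP6-1 among them, and serine in 2, NIP5-1 and NIP7-1. Each SIP differs, with a codon for cysteine in SIP1-2, threonine in SIP1-1 and leucine in SIP2-1. Among coding sequences of the family SIP1-2 was nearest to SIP1-1, with 77.48% identity. The genomic span of its model shared no 31-mer with that of any other of the 35 members. Targets outside the family were not searched. PIP2-2 and PIP2-3, which neighbour each other on chromosome 2, are 94.76% identical. They share 31.58% and 31.32% of their 31-mers with other members, so how reads were divided between them is uncertain. The 31-mer length is the word size of the counting index assumed here. Of the 34 members with more than 1 exon, 27 had a target closer in length to the genomic span, introns included, than to the spliced form, so a level per length here is per length of target.

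Libraries held 26615772 to 38269946 estimated counts. Levels within a gene are given as CPM, counts relative to the library total after edgeR's TMM scaling within each organ, and levels between genes as TPM, which also divides by target length. Gene names follow UniProt's hyphenated form, so that SIP1-2 is the locus also written with a semicolon. EIL1 averaged 15.8 to 19.5 CPM in eil3 eil1-labelled roots, 42.96 to 51.4 CPM in eil1-labelled roots and 51.4 to 55.9 CPM in Col-0 roots. EIL3 averaged 14.8 to 15.8 CPM in eil3-labelled roots, 21.2 to 21.6 CPM in eil3 eil1-labelled roots and 22.2 to 23.5 CPM in Col-0 roots, and 17.2 to 19.2 CPM in eil3-labelled shoots against 17.02 to 21.9 CPM in Col-0 shoots. In eil3 eil1-labelled shoots EIL3 averaged 29.8 to 29.97 CPM and was higher than in Col-0 shoots, by 0.45 ± 0.11 at -S and 0.81 ± 0.11 at +S (edgeR adjusted p = 0.00131 and 0.00011), against its label. EIL1 averaged 26.96 to 45.6 CPM in eil3 eil1-labelled shoots, 83.98 to 92.4 CPM in eil1-labelled shoots and 102 to 105 CPM in Col-0 shoots. The targeted transcripts thus do not separate every mutant from Col-0, reads outside an insertion can remain, and genotypes are named as labelled. The organs carried their markers: 8 green-tissue markers summed to 517 to 1986 CPM in roots and 23379.6 to 84879.6 CPM in shoots, and 7 endodermis markers to 280.2 to 450.4 CPM in roots and 3.72 to 15.8 CPM in shoots. A difference was called where edgeR's quasi-likelihood test, fitted over all loci of an organ with Benjamini-Hochberg adjustment, gave an adjusted p under 0.05. Changes are log2 fold changes ± SE, the SE being approximate.

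Root aquaporin transcripts were dominated by a few PIPs and TIPs. In Col-0 roots at +S, TIP1-2 had the highest mean, at 1588 ± 150.5 TPM (SD, n = 3), followed by PIP1-2 at 1423 ± 52.1, TIP1-1 at 1375 ± 219, PIP2-1 at 1323 ± 32.8 and PIP2-2 at 1040.1 ± 75.1 TPM. TIP1-1 and TIP1-2 are vacuolar water channels, and PIP1-2, PIP2-1 and PIP2-2 are major plasma membrane channels of roots. The libraries of TIP1-2 lay above those of PIP1-2 and overlapped those of TIP1-1, and those of PIP1-2 and TIP1-1, and of TIP1-1 and PIP2-1, overlapped. These 5 loci made up 60.2% of all aquaporin TPM in Col-0 roots at -S and 59.6% at +S. The next members, PIP1-1, PIP1-3, TIP2-2 and PIP2-7, stood between 628 and 815 TPM. NIP1-1, a channel permeable to arsenite, was the highest NIP at 83.8 ± 12.3 TPM, followed by the boric acid channel NIP5-1 at 28.3 ± 2.29 TPM, and their libraries did not overlap. Among SIPs, SIP2-1 at 104 ± 6.65 and SIP1-1 at 102 ± 12.1 TPM overlapped, and SIP1-2 stood at 5.56 ± 0.517 TPM.

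**Figure D1:**
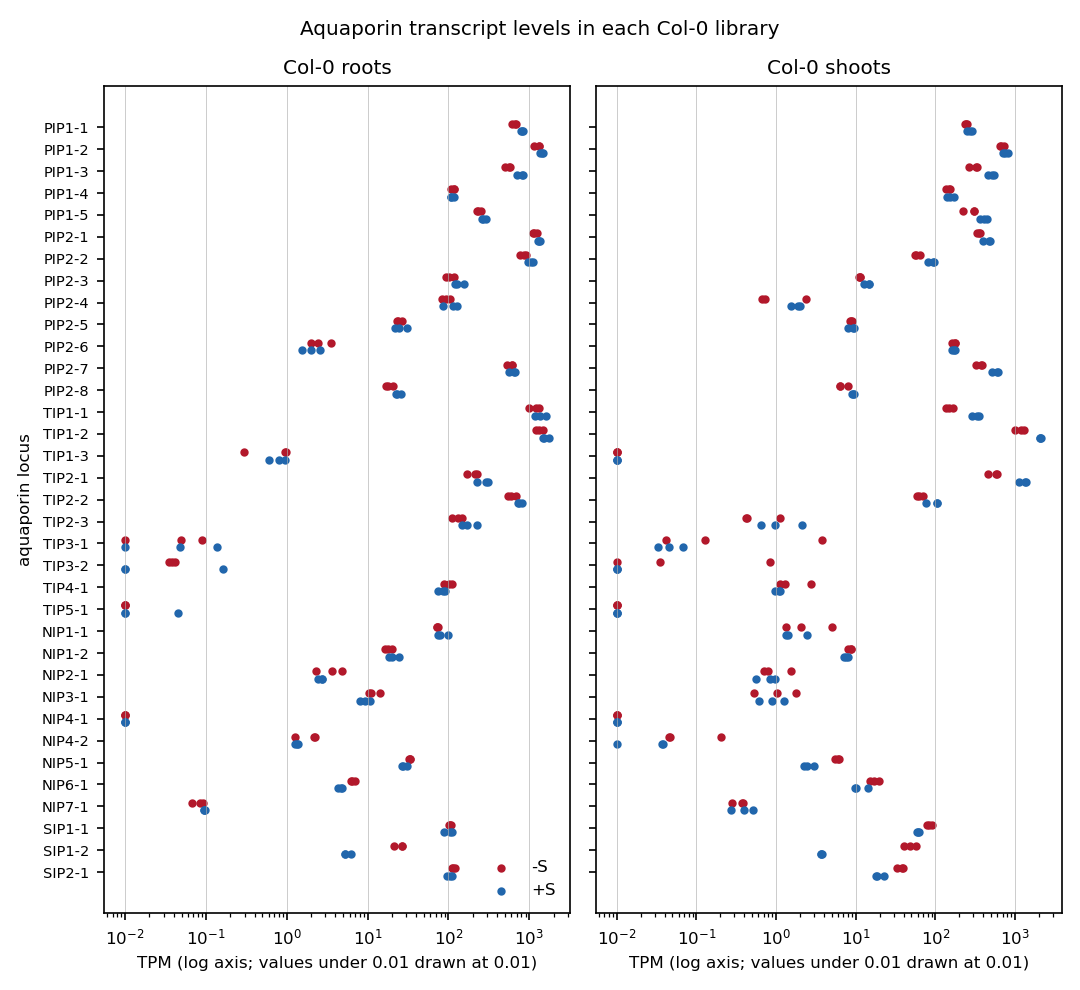
Transcript level of each of the 35 aquaporin loci in Col-0 roots (left) and shoots (right), in TPM on a log axis; each point is 1 library, -S above +S. TIP1-2 led both organs at +S, and the -S points of SIP1-2 lie far above its +S points in both.

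Several members were at or near 0. NIP4-1, a pollen channel, had 0 counts in all 48 libraries. Taken alone, a count of 0 in a library allows an expected count of up to about 3 there. TIP5-1, also of pollen, had 7 counts in total, the seed members TIP3-2 and TIP3-1 had 60 and 165, and the pollen member TIP1-3 had 112. The low-count filter kept 29 members in roots and 29 in shoots: TIP1-3, TIP3-1, TIP3-2, TIP5-1 and NIP4-1 were left out in both organs, NIP7-1 in roots and NIP4-2 in shoots. Of the 165 TIP3-1 counts, 103 came from a single library, Col-0 shoots at -S replicate 1, with 2.87 CPM, which also held 27 of the 60 TIP3-2 counts. In that library 6 seed markers summed to 229 CPM, against 2.03 and 0.290 CPM in the other 2 libraries of its group, and none of the 6 was at 0. The part of seed tissue in the TIP3 counts was not tested.

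In Col-0 roots 5 aquaporins fell and 2 rose at -S. Of 29 members tested 7 were called (24.1%), against 9.03% of all root loci (4.26% higher, 4.77% lower). The 5 that fell were PIP1-3, PIP2-8, PIP1-1, PIP2-2 and TIP2-1, and those that rose were SIP1-2 and NIP6-1. The median change of the members was -0.26, against 0.0064 over all loci tested. By subfamily the medians were -0.29 over 13 PIPs, -0.37 over 6 TIPs, 0.27 over 7 NIPs and 0.07 over 3 SIPs. In bulk RNA, fewer cells of a type and less RNA per cell cannot be told apart. The 8 green-tissue markers summed to 797 to 1025 CPM in these roots at -S and 921 to 1211 CPM at +S, the 7 endodermis markers to 294 to 404 CPM at -S and 280.2 to 412 CPM at +S, and the 5 root hair markers to 185 to 209 CPM at -S and 145 to 199 CPM at +S. The ranges overlapped for each list, and no marker of these 3 lists was at 0 in any Col-0 root library.

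SIP1-2 (AT5G18290; chr5:6055028-6056700, minus strand, TAIR10.1), a channel of the endoplasmic reticulum, had by far the largest change. It stood at 18.8, 22.1 and 23.8 CPM in Col-0 roots at -S, against 5.02, 5.32 and 4.81 CPM at +S. Every -S library was above every +S library. The change was 2.09 ± 0.13 (edgeR adjusted p = 8.91e-11). In eil1-labelled roots the values were 14.5, 13.2 and 18.2 CPM at -S and 4.63, 5.08 and 4.895 CPM at +S, a rise of 1.65 ± 0.13 (edgeR adjusted p = 1.20e-08), again without overlap. No rise was called in roots of either line labelled eil3. In eil3-labelled roots SIP1-2 had 5.22, 5.05 and 4.599 CPM at -S and 5.37, 4.85 and 5.23 CPM at +S, a change of -0.05 ± 0.13 (edgeR adjusted p = 0.942). In eil3 eil1-labelled roots it had 4.41, 5.398 and 5.27 CPM at -S and 6.14, 5.02 and 4.34 CPM at +S, a change of -0.04 ± 0.13 (edgeR adjusted p = 0.959). All 12 of these libraries lay between 4.34 and 6.14 CPM, below every -S library of eil1-labelled and Col-0 roots.

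The difference of the root response from Col-0 was -0.44 ± 0.18 for eil1 (edgeR adjusted p = 0.512), -2.15 ± 0.19 for eil3 (edgeR adjusted p = 3.17e-07) and -2.13 ± 0.18 for eil3 eil1 (edgeR adjusted p = 1.12e-07). The 3 differences share the Col-0 libraries. At -S itself the eil1-labelled roots differed from Col-0 by -0.49 ± 0.12 (edgeR adjusted p = 0.0275), a call lost without Col-0 -S replicate 2 or 3 or eil1 -S replicate 1 or 2, with adjusted p of up to 0.163. Relative to Col-0 roots, SIP1-2 in mutant-labelled roots at +S was changed by between -0.05 and 0.03, none called.

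In Col-0 shoots the rise of SIP1-2 was larger than in Col-0 roots. Col-0 shoots had 44.99, 40.2 and 56.1 CPM at -S and 3.92, 4.29 and 4.13 CPM at +S, a rise of 3.52 ± 0.19 (edgeR adjusted p = 1.15e-11). The values in eil1-labelled shoots were 27.4, 28.02 and 43.5 CPM at -S and 3.94, 3.95 and 3.68 CPM at +S. Both shoot groups showed no overlap between -S and +S. Unlike in roots, eil3-labelled shoots also rose, with 15.6, 13.7 and 13.9 CPM at -S and 5.09, 4.97 and 7.100 CPM at +S (1.34 ± 0.18, edgeR adjusted p = 9.75e-06). In eil3 eil1-labelled shoots the values overlapped, at 5.44, 5.37 and 7.08 CPM at -S and 6.96, 5.32 and 5.47 CPM at +S (0.01 ± 0.18, edgeR adjusted p = 0.975). Relative to Col-0 the shoot response differed by -0.42 ± 0.25 in eil1 (edgeR adjusted p = 0.696), by -2.17 ± 0.25 in eil3 (edgeR adjusted p = 3.71e-05) and by -3.51 ± 0.26 in eil3 eil1 (edgeR adjusted p = 9.17e-09). In Col-0 the root response minus the shoot response was -1.43 ± 0.18 (edgeR adjusted p = 0.000565).

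**Figure D2:**
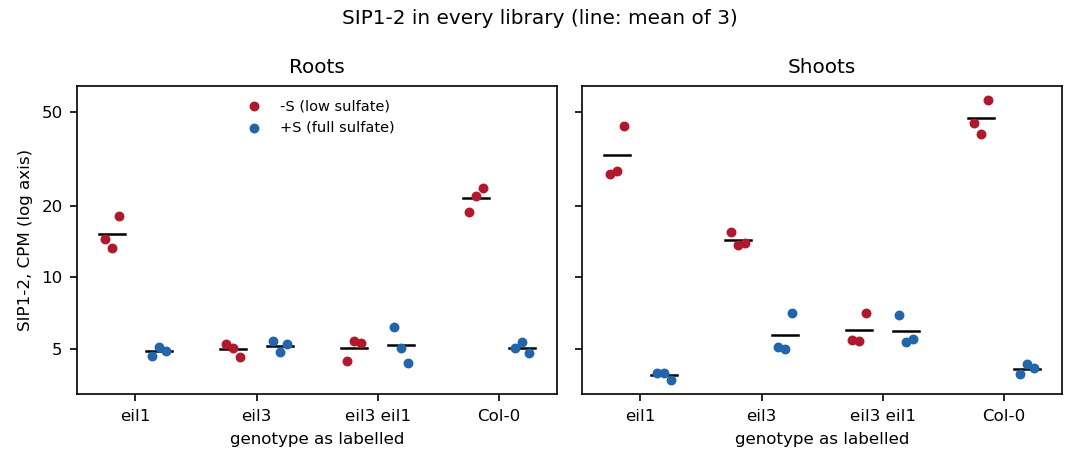
SIP1-2 in CPM (log axis) in every root library (left) and shoot library (right), by genotype as labelled, -S left of +S; points are libraries and lines are means of 3. The -S points stand apart from the +S points in eil1 and Col-0 roots and in eil1, eil3 and Col-0 shoots, while they overlap in eil3 and eil3 eil1 roots and in eil3 eil1 shoots.

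The 250 bases upstream of the SIP1-2 model whose span matches the counted target are shown because its response differed in the lines labelled for a mutation in EIL3, a factor of the EIN3-like family. The region lies at chr5:6056701-6056950 on the minus strand (RefSeq TAIR10.1). It is inside the annotated span of the SIP1-2 gene, which extends to position 6058368. Whether it is exon or intron in a longer model was not checked. It is printed 5′ to 3′ with matches to the searched words in capitals, on either strand.
SIP1-2 upstream: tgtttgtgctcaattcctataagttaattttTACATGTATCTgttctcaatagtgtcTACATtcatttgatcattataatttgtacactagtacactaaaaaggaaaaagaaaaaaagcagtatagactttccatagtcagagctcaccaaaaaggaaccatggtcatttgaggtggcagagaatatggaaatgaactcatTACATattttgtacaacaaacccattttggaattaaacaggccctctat
The words searched on both strands were the core ATGTA and the 8 forms of the tobacco EIL binding site, ATGAACCT, ATGAATCT, ATGTACCT, ATGTATCT, ACGAACCT, ACGAATCT, ACGTACCT and ACGTATCT; the core lies within some of these. SIP1-2 held 1 full site and 4 cores, of which 1 lies within the full site. A full site occurred in 4 of the 35 aquaporin windows (TIP3-1, NIP3-1, NIP7-1 and SIP1-2), and in 5.93% of 27443 protein-coding windows. The core occurred in 25 of 35, and in 52.05% of all. Member windows lie before the model nearest the target in length, and the protein-coding windows before each gene's outermost annotated start. These sets of windows are thus not defined alike. These matches describe letters only.

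The PIP that fell most in Col-0 roots was PIP1-3 (AT1G01620; chr1:225665-227543), a plasma membrane channel. It had 499, 407 and 486 CPM at -S and 789, 602 and 715 CPM at +S. The groups did not overlap, and the change was -0.60 ± 0.11 (edgeR adjusted p = 0.000625). In eil1-labelled roots the groups were also apart, at 562, 478 and 475 CPM at -S and 586, 629 and 664 CPM at +S, but the change of -0.31 ± 0.11 was not called (edgeR adjusted p = 0.186). Changes in the other mutant-labelled roots were -0.13 ± 0.11 in eil3 and -0.12 ± 0.11 in eil3 eil1. The differences from the Col-0 response were not called, with edgeR adjusted p = 0.708 for eil1, 0.186 for eil3 and 0.0796 for eil3 eil1. PIP2-8 (AT2G16850; chr2:7301334-7303509), a PIP of low level, had 16.6, 19.2 and 17.6 CPM at -S and 25.04, 22.1 and 26.5 CPM at +S, without overlap (-0.46 ± 0.11, edgeR adjusted p = 0.00758). Its mutant-labelled root libraries, 13.9 to 19.9 CPM over both media, lay below all 3 Col-0 +S libraries.

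PIP1-1 (AT3G61430; chr3:22733243-22735394) had 689.5, 571 and 664 CPM in Col-0 roots at -S and 881, 778 and 862 CPM at +S (-0.39 ± 0.11, edgeR adjusted p = 0.024). Its groups did not overlap in Col-0. In mutant-labelled roots all 18 libraries stood at 719 to 1205 CPM, above the highest Col-0 -S library. PIP2-2 (AT2G37170; chr2:15613368-15615022) had 676, 543 and 639.5 CPM at -S and 909.7, 705 and 801 CPM at +S (-0.38 ± 0.11, edgeR adjusted p = 0.0396), also without overlap. Its near copy PIP2-3 had 86.6, 66.2 and 76.3 CPM at -S and 125, 87.8 and 95.9 CPM at +S, a change of -0.43 ± 0.14 that was not called (edgeR adjusted p = 0.0641). TIP2-1 (AT3G16240; chr3:5505360-5507050), a vacuolar channel for water and ammonia, had 194, 137 and 184 CPM at -S and 290.3, 189.7 and 255 CPM at +S. The groups overlapped through -S replicate 1 and +S replicate 2, and the change was -0.51 ± 0.16 (edgeR adjusted p = 0.0406). An annotated gene overlaps TIP2-1, as for NIP6-1 and SIP2-1, and since use of strand in counting is not given, their reads cannot be told apart.

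NIP6-1 (AT1G80760; chr1:30350539-30352208), a boric acid channel known for boron transfer to young shoot tissue, was the other member that rose. It had 6.12, 5.14 and 5.67 CPM in Col-0 roots at -S and 4.54, 4.11 and 3.84 CPM at +S, without overlap (0.44 ± 0.12, edgeR adjusted p = 0.0227). Mutant-labelled roots had 2.93 to 4.98 CPM over both media, under the lowest Col-0 -S library. The calls of PIP1-1, PIP2-2, TIP2-1 and NIP6-1 rested on single libraries. PIP1-1 lost its call without Col-0 +S replicate 1 or 3 or -S replicate 2 (adjusted p of up to 0.139). PIP2-2 and TIP2-1 lost theirs without +S replicate 1 or 3 or -S replicate 2 or 3 (up to 0.203 and 0.220), and NIP6-1 without +S replicate 2 or 3 or -S replicate 1 or 3 (up to 0.106). With 1 library left out the number of members called in Col-0 roots ranged from 3, without +S replicate 3, to 10, without +S replicate 2, and was 4 without +S replicate 1 or -S replicate 2. SIP1-2, PIP1-3 and PIP2-8 kept their calls in each of the 6 refits.

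**Figure D3:**
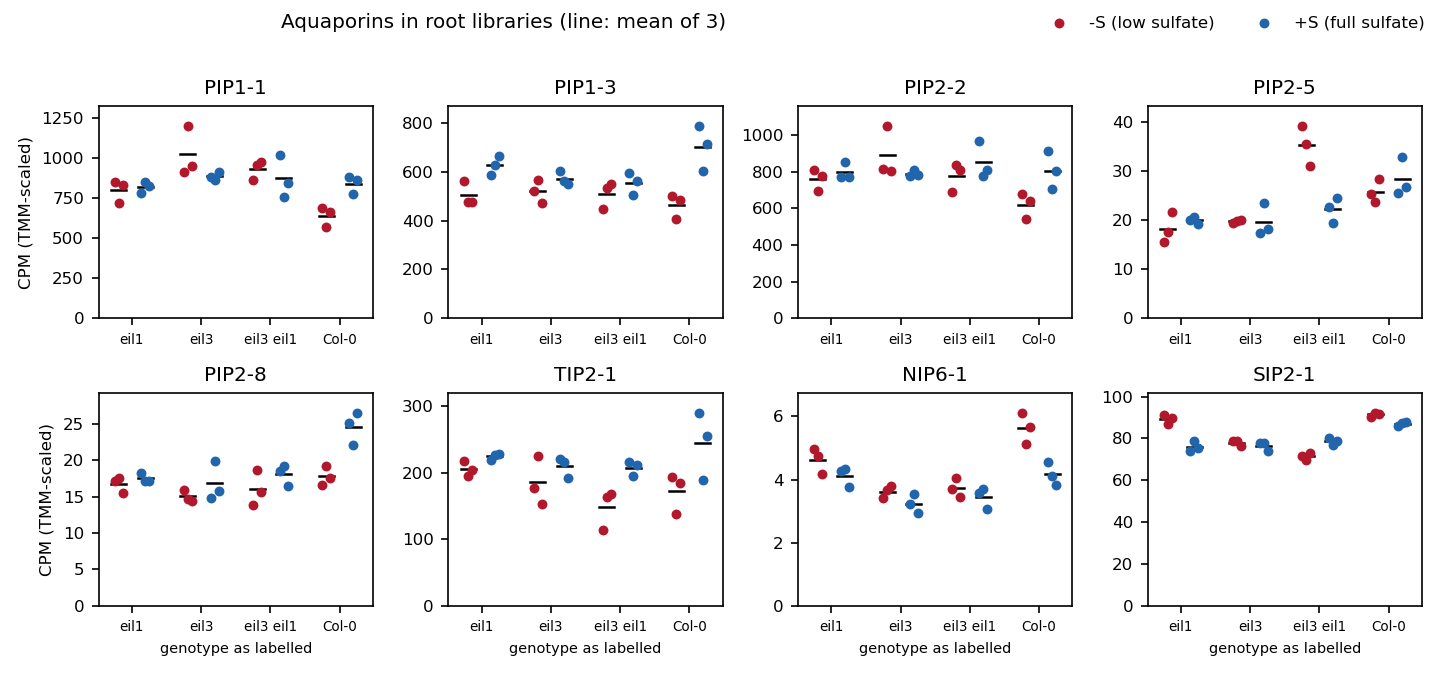
CPM of 8 aquaporins in the 24 root libraries, by genotype as labelled, -S left of +S; points are libraries and lines are means of 3. In Col-0 the -S points lie below the +S points for PIP1-1, PIP1-3, PIP2-2 and PIP2-8 and above them for NIP6-1 and SIP2-1, and PIP2-5 is highest in eil3 eil1-labelled roots at -S, at 39.3, 35.6 and 31.1 CPM.

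The most abundant root members were not called. TIP1-2 had 1013, 796 and 929 CPM in Col-0 roots at -S and 1343, 1019 and 1075 CPM at +S (-0.33 ± 0.12, edgeR adjusted p = 0.0984). TIP1-1 had 737, 531 and 668 CPM at -S and 979.9, 638 and 775 CPM at +S (-0.31 ± 0.15, edgeR adjusted p = 0.253). Only TIP1-1 of this pair overlapped between the media. PIP1-2 had 1181, 969 and 1161 CPM at -S and 1428, 1191 and 1312 CPM at +S, nearly meeting but without overlap (-0.25 ± 0.10, edgeR adjusted p = 0.123). PIP2-1 had 1385, 1172 and 1275 CPM at -S and 1668, 1425 and 1503 CPM at +S (-0.26 ± 0.092, edgeR adjusted p = 0.0817). All 4 of these channels had a negative estimate at edgeR adjusted p above the threshold. Of the highest NIPs, NIP1-1 had 76.9, 75.2 and 76.7 CPM at -S and 86.5, 82.3 and 106 CPM at +S, and NIP5-1 67.3, 65.2 and 69.9 CPM at -S and 59.6, 62.4 and 58.3 CPM at +S. Neither overlapped between the media, and neither was called (-0.26 ± 0.13 and 0.17 ± 0.073; edgeR adjusted p = 0.262 and 0.178). Summed over all 35 loci, Col-0 roots held 9602 ± 783 TPM at -S and 11323 ± 767 TPM at +S, and the ranges of libraries, 8771 to 10328 TPM at -S and 10576 to 12108 TPM at +S, did not overlap.

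Fewer aquaporins were called in mutant-labelled roots than in Col-0 roots, and so were fewer of all loci, of which 9.03% were called in Col-0 roots. The lower counts are thus not particular to aquaporins. In eil1-labelled roots 2 of 29 were called, both higher, SIP1-2 and SIP2-1, against 1.92% of loci (1.09% higher, 0.834% lower). In eil3-labelled roots none was called by edgeR, against 1.06% of loci (0.469% higher, 0.592% lower). There were 2 at an unadjusted p under 0.05 and 0 by DESeq2 and by limma. In eil3 eil1-labelled roots 1 was called (3.45%), PIP2-5, near the 3.89% of loci (2.2% higher, 1.69% lower). The median change of the members was -0.04 in eil1, 0.08 in eil3 and -0.03 in eil3 eil1, against -0.26 in Col-0. Summed aquaporin TPM was 11346 ± 659 at -S and 11593 ± 555 at +S in eil1-labelled roots, 12460.2 ± 1555 at -S and 11363 ± 413 at +S in eil3-labelled roots, and 11189 ± 881 at -S and 11541 ± 1109 at +S in eil3 eil1-labelled roots, with overlapping libraries in each genotype. In the eil1-labelled +S libraries the green-tissue markers ranged up to 1986 CPM, in replicate 1, against at most 809.5 CPM at -S. The number of members called in eil1-labelled roots was also 2 without that library.

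The test of the difference from the Col-0 root response called 0 members for eil1 with edgeR, against 0.383% of loci (0.173% higher, 0.21% lower). At an unadjusted p under 0.05 there were 7, and DESeq2 and limma called 0. For eil3 it called 1, against 0.943% of loci (0.437% higher, 0.506% lower), and 2 without Col-0 -S replicate 1 or eil3 -S replicate 1 or 3. For eil3 eil1 it called 3, against 3.83% of loci (2.3% higher, 1.52% lower). SIP1-2, described above, was called for both lines labelled eil3. For eil3 eil1 the others were PIP2-5 and SIP2-1. PIP2-5 (AT3G54820; chr3:20301759-20304309), a plasma membrane channel of low level, had 39.3, 35.6 and 31.1 CPM in eil3 eil1-labelled roots at -S and 22.8, 19.5 and 24.5 CPM at +S, against 25.3, 23.7 and 28.4 CPM in Col-0 roots at -S and 25.6, 32.8 and 26.7 CPM at +S. The eil3 eil1-labelled -S libraries were above their +S libraries and above every Col-0 -S library. Its response was 0.66 ± 0.12 (edgeR adjusted p = 0.00238) and differed from Col-0 by 0.80 ± 0.18 (edgeR adjusted p = 0.00995). The 8 green-tissue markers summed to 793 to 1047 CPM at -S and 517 to 743 CPM at +S in these roots, with none of the 8 called; their part was not tested. With total-count scaling the loci called in this difference were 1.79% higher and 1.94% lower, and the split of members stayed at 1 higher and 2 lower. At -S, PIP2-5 was lower than in Col-0 roots in eil1-labelled roots (-0.50 ± 0.13, edgeR adjusted p = 0.0381), a call lost without Col-0 -S replicate 1, 2 or 3 or without eil1 -S replicate 1 or 2 (adjusted p of up to 0.229).

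SIP2-1 (AT3G56950; chr3:21078297-21079925) moved by small amounts with little scatter. In eil3 eil1-labelled roots it had 71.5, 69.9 and 73.1 CPM at -S and 80.2, 76.8 and 79.01 CPM at +S, and in Col-0 roots 90.3, 92.3 and 91.9 CPM at -S and 86.1, 87.5 and 87.7 CPM at +S. The groups were apart in both genotypes, in opposite directions. Neither response was called (-0.14 ± 0.041 in eil3 eil1 and 0.07 ± 0.041 in Col-0), and their difference of -0.21 ± 0.058 (edgeR adjusted p = 0.0448) lost its call without any 1 of the 12 libraries, with adjusted p between 0.0647 and 0.118. In eil1-labelled roots SIP2-1 had 91.4, 86.9 and 89.9 CPM at -S and 73.9, 78.8 and 75.2 CPM at +S and rose by 0.23 ± 0.041 (edgeR adjusted p = 0.00165). SIP1-1, the near relative of SIP1-2, had root responses between -0.03 and 0.08 in the 4 genotypes, none called.

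At -S, roots of the lines labelled eil3 differed from Col-0 roots in both directions. In eil3-labelled roots 11 of 29 members were called (37.9%), against 6.65% of loci (3.28% higher, 3.37% lower). The 7 that were higher were PIP1-1, PIP1-2, PIP2-1, PIP2-2, PIP2-3, TIP2-2 and TIP2-3, and the 4 lower ones were SIP1-2, SIP2-1, NIP6-1 and PIP1-4. PIP1-1 had 916, 1205 and 952 CPM in eil3-labelled roots, against 689.5, 571 and 664 CPM in Col-0 roots, without overlap (0.67 ± 0.11, edgeR adjusted p = 0.000315). PIP2-3 had 133, 166 and 114 CPM against 86.6, 66.2 and 76.3 CPM in Col-0 roots (0.85 ± 0.14, edgeR adjusted p = 0.000545), also apart. SIP2-1 had 78.9, 78.7 and 76.5 CPM against 90.3, 92.3 and 91.9 CPM in Col-0 roots (-0.23 ± 0.041, edgeR adjusted p = 0.00094), and SIP1-2 differed by -2.12 ± 0.13 (edgeR adjusted p = 1.91e-10). The vacuolar channel TIP2-2 had 496, 615 and 463 CPM against 381, 292 and 333 CPM in Col-0 roots, and TIP2-3 147, 181 and 123 CPM against 91.1, 66.1 and 82.8 CPM. Without eil3-labelled -S replicate 2 or Col-0 -S replicate 2, PIP1-2 and PIP2-1 were no longer called, PIP2-1 also without Col-0 -S replicate 3. With any single library left out the count was 9 to 12. The 8 green-tissue markers summed to 525 to 682 CPM in eil3-labelled roots at -S and 797 to 1025 CPM in Col-0 roots at -S, without overlap and with none called; their part was not tested.

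In eil3 eil1-labelled roots at -S 8 members were called, against 12.1% of loci (6.07% higher, 6.01% lower). PIP1-1, PIP2-3, TIP2-3 and PIP2-5 were higher and SIP1-2, SIP2-1, PIP1-4 and NIP6-1 lower. SIP1-2 differed by -2.10 ± 0.13, SIP2-1 by -0.36 ± 0.041, PIP1-4 by -0.43 ± 0.071 and PIP1-1 by 0.54 ± 0.11 (edgeR adjusted p = 1.11e-10, 3.00e-06, 0.000193 and 0.00144). PIP1-4, a plasma membrane channel, had 88.2, 102 and 107 CPM in these roots and 139, 122 and 140.2 CPM in Col-0 roots, without overlap. PIP2-5 lost its call without Col-0 -S replicate 1 or 2 or eil3 eil1 -S replicate 1 (adjusted p of up to 0.0973). TIP2-3 lost its call without Col-0 -S replicate 1, 2 or 3 or without eil3 eil1 -S replicate 2 or 3 (adjusted p of up to 0.219). In eil1-labelled roots at -S 2 members were called, both lower, SIP1-2 and PIP2-5, against 2.51% of loci (1.33% higher, 1.18% lower).

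At +S every called aquaporin of mutant-labelled roots was lower than in Col-0 roots. In eil1-labelled roots 2 were called, against 1.24% of loci (0.66% higher, 0.578% lower). In eil3-labelled roots 4 were called, against 2.19% of loci (0.861% higher, 1.33% lower). In eil3 eil1-labelled roots 1 was called, against 0.879% of loci (0.446% higher, 0.433% lower). PIP2-8 was lower in eil1-labelled roots (-0.49 ± 0.11, edgeR adjusted p = 0.0262) and in eil3-labelled roots (-0.54 ± 0.11, edgeR adjusted p = 0.00985). SIP2-1 was lower in the same roots, with changes of -0.20 ± 0.041 and -0.18 ± 0.041 (edgeR adjusted p = 0.0194 and 0.02). At +S PIP2-8 stood at 18.3, 17.1 and 17.1 CPM in eil1-labelled roots and 14.8, 19.9 and 15.8 CPM in eil3-labelled roots, below the Col-0 values above, and SIP2-1 at 77.9, 77.8 and 74.2 CPM in eil3-labelled roots. PIP2-5, at 17.3, 23.5 and 18.2 CPM, and PIP1-4, at 111, 117 and 103 CPM, were lower in eil3-labelled roots than in Col-0 roots, where PIP1-4 stood at 140.4, 136 and 132 CPM. PIP1-4 in eil3 eil1-labelled roots had 108, 105 and 109 CPM; none of these pairs of groups overlapped, and it was lower there too (-0.34 ± 0.071 against Col-0, edgeR adjusted p = 0.0207). The eil1 count was 0 without Col-0 +S replicate 3 or eil1 +S replicate 1 or 3. The eil3 count was 0 without eil3 +S replicate 3 and 1 without eil3 +S replicate 1 or Col-0 +S replicate 2. The eil3 eil1 count was 0 without Col-0 +S replicate 1 or any 1 of the eil3 eil1 +S libraries, and PIP1-4 also lost its call without Col-0 +S replicate 2 (adjusted p = 0.0574). The 8 green-tissue markers summed to 645 to 782 CPM in eil3-labelled roots and 517 to 743 CPM in eil3 eil1-labelled roots at +S, both below the 921 to 1211 CPM in Col-0 roots, with none called; their part was not tested. With total-count scaling the members called were 0 higher and 3 lower (1.23% and 0.979% of loci) in eil3 and 0 higher and 1 lower (0.647% and 0.333% of loci) in eil3 eil1.

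In Col-0 shoots most members were called, and most of those fell. Of 29 members 19 were called in Col-0 shoots, 4 higher and 15 lower, against 34.9% of loci (16.9% higher, 17.9% lower), with a median of -0.37 against 0 over all loci. All 13 PIPs except PIP2-4 and PIP2-5 fell, as did TIP1-1, TIP1-2, TIP2-1 and TIP2-2, and SIP1-2, SIP2-1, SIP1-1 and NIP5-1 rose. TIP2-1 had 532, 579 and 446 CPM at -S and 1173, 1531 and 1508 CPM at +S (-1.44 ± 0.12, edgeR adjusted p = 3.99e-08). TIP1-1 had 89.2, 103 and 85.2 CPM at -S and 196, 255 and 235 CPM at +S (-1.30 ± 0.13, edgeR adjusted p = 1.70e-07). PIP2-7, a plasma membrane water channel, had 358, 362 and 315 CPM at -S and 550.3, 678 and 669 CPM at +S (-0.87 ± 0.090, edgeR adjusted p = 3.72e-07). None of these 3 overlapped between the media. Of the NIPs, NIP5-1 had 12.1, 13.7 and 14.3 CPM at -S and 5.64, 8.07 and 6.33 CPM at +S, a rise of 1.00 ± 0.20 (edgeR adjusted p = 0.000504). Over the same libraries the 8 green-tissue markers, all of which fell, summed to 40454 to 49424 CPM at -S and 71079.6 to 84879.6 CPM at +S; their part in the aquaporin changes was not tested. With total-count scaling the members called were 5 higher and 13 lower (26.3% and 11.3% of loci), and the median of all loci moved by 0.12.

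Most PIPs and TIPs fell in shoots of the mutant-labelled lines too. In eil1-labelled shoots 3 members rose and 15 fell, against 27.3% of loci (14.4% higher, 12.9% lower). In eil3-labelled shoots 4 rose and 16 fell, against 34.6% of loci (18.1% higher, 16.6% lower). In eil3 eil1-labelled shoots 3 rose and 22 fell, against 60.8% of loci (32.5% higher, 28.3% lower). TIP2-1 changed by -1.27 ± 0.12 in eil1, -1.48 ± 0.12 in eil3 and -2.07 ± 0.13 in eil3 eil1, PIP1-3 by -0.77 ± 0.10, -0.93 ± 0.10 and -1.60 ± 0.10 in the same order, against -0.94 ± 0.10 in Col-0. NIP5-1 rose in each, by 0.87, 1.14 and 1.37. With total-count scaling the members called were 5 higher and 14 lower (19.1% and 9.42% of loci) in eil1, 4 higher and 12 lower (40.7% and 7.54% of loci) in eil3 and 3 higher and 21 lower (42.3% and 20.9% of loci) in eil3 eil1. That scaling moved the median of all loci by 0.23 in eil3 and 0.17 in eil3 eil1.

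TIP2-1 had 549, 537 and 511 CPM at -S and 1287, 1238 and 1318 CPM at +S in eil1-labelled shoots, 467, 473 and 407 CPM at -S and 1226, 1033 and 1499.8 CPM at +S in eil3-labelled shoots, and 281, 276 and 307 CPM at -S and 1177, 1326 and 1128 CPM at +S in eil3 eil1-labelled shoots. PIP1-3 had 271, 266 and 251 CPM at -S and 499.6, 436 and 563 CPM at +S in eil3-labelled shoots and 161, 166 and 177 CPM at -S and 489.6, 544 and 494 CPM at +S in eil3 eil1-labelled shoots. Neither channel overlapped between the media in these shoots. PIP2-7 had 383, 347 and 311 CPM at -S and 642, 628 and 627 CPM at +S in eil1-labelled shoots (-0.86 ± 0.090), and 354, 359 and 361 CPM at -S and 608, 568 and 701 CPM at +S in eil3-labelled shoots (-0.81 ± 0.090). TIP1-1 had 143, 119 and 104 CPM at -S and 252, 268 and 286 CPM at +S in eil1-labelled shoots, and TIP1-2 914, 894 and 817 CPM at -S and 1693, 1426 and 2075 CPM at +S in eil3-labelled shoots. All of these groups were apart, with -S below +S. PIP1-5, a plasma membrane channel, had 115, 118 and 124 CPM at -S and 344, 429.8 and 367 CPM at +S in eil3 eil1-labelled shoots (-1.67 ± 0.12). Among members of low shoot level, TIP4-1 and PIP2-4 fell in eil3 eil1-labelled shoots and TIP2-3 was not called. TIP4-1 had 0.475, 0.484 and 0.132 CPM at -S and 1.14, 1.12 and 1.94 CPM at +S, and PIP2-4 had 0.475, 0.169 and 0.132 CPM at -S and 1.36, 1.05 and 1.31 CPM at +S. TIP2-3 had 0.601, 0.266 and 0.264 CPM at -S and 0.388, 0.780 and 0.970 CPM at +S, overlapping. The 7 endodermis markers summed to 3.72 to 6.04 CPM at -S and 8.21 to 10.4 CPM at +S in these shoots, 4 of 6 tested ones falling, and the 5 root hair markers, 4 of 4 tested ones falling, to 0.363 to 0.728 CPM at -S, with 1 of the 5 at 0, and 2.48 to 3.35 CPM at +S. Their part in the fall of TIP4-1 and PIP2-4 was not tested. Of the 8 green-tissue markers 5 fell in eil1-labelled shoots and 8 in eil3-labelled shoots, and their part was not tested.

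The shoot response differed from Col-0 for 0 members in eil1 with edgeR, against 0.023% of loci (0.00461% higher, 0.0184% lower). At an unadjusted p under 0.05 there were 4, and DESeq2 and limma called 0. It differed for 1 member in eil3, SIP1-2, against 1.78% of loci (0.747% higher, 1.03% lower). In eil3 eil1 it differed for 14, 1 higher and 13 lower, against 36.9% of loci (20% higher, 16.9% lower). Besides SIP1-2 these were PIP1-1, PIP1-2, PIP1-3, PIP1-5, PIP2-1, PIP2-2, PIP2-6, TIP2-1, TIP2-2, TIP4-1, NIP1-2 and NIP6-1, with a more negative response, and SIP1-1, with a more positive one. PIP1-1 had 122, 125 and 111 CPM at -S and 298, 319 and 267 CPM at +S in eil3 eil1-labelled shoots, against 264, 273 and 257 CPM at -S and 305, 375 and 346 CPM at +S in Col-0 shoots. At -S every eil3 eil1-labelled library was below every Col-0 library, while at +S they overlapped. The difference of response was -0.94 ± 0.12 (edgeR adjusted p = 2.90e-06). It was -0.66 ± 0.11 for PIP1-2 and -0.92 ± 0.16 for PIP1-5 (edgeR adjusted p = 9.83e-05 and 0.000181). PIP1-2 had 486, 473 and 436 CPM at -S and 945, 1003 and 893 CPM at +S in eil3 eil1-labelled shoots, and 638, 719 and 643 CPM at -S and 773, 944 and 854 CPM at +S in Col-0 shoots. PIP1-5 had 280.3, 289.6 and 213 CPM at -S and 376, 501 and 444 CPM at +S in Col-0 shoots. NIP6-1 fell in eil3 eil1-labelled shoots, with 7.37, 6.53 and 4.81 CPM at -S and 12.9, 12.2 and 12.3 CPM at +S (-1.01 ± 0.18, edgeR adjusted p = 6.95e-05), the opposite of its rise in Col-0 roots. In Col-0 shoots it had 18.1, 16.5 and 14.6 CPM at -S and 10.4, 16.4 and 11.1 CPM at +S, overlapping and not called. NIP1-2, a relative of NIP1-1, had 7.403, 8.08 and 8.64 CPM at -S and 11.5, 10.4 and 11.04 CPM at +S in eil3 eil1-labelled shoots. Green-tissue markers in eil3 eil1-labelled shoots summed to 23379.6 to 25223 CPM at -S and 63089 to 72009 CPM at +S, and 6 of 8 passed the same test of difference; their part was not tested. Col-0 shoots at -S replicate 3 stood apart on root markers: the root hair list summed to 11.4 CPM there, against 2.84 and 2.97 CPM in the other two, and the endodermis list to 15.8 CPM, against 6.65 and 9.52 CPM. Col-0 shoots at -S had 1.03, 1.28 and 2.64 CPM of TIP4-1, 0.557, 0.642 and 2.13 CPM of PIP2-4 and 1.504, 2.43 and 5.87 CPM of NIP1-1, each highest in that library. With it the difference of response of TIP4-1 was -2.43 ± 0.65 (edgeR adjusted p = 0.00581), and without it the difference was smaller, still negative and still called, and 14 members were again called. With total-count scaling the loci called in the eil3 difference were 2.04% higher and 0.742% lower, and the median of all loci moved by 0.10.

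Set directly against Col-0 at -S, 1 member was called in eil1-labelled shoots, against 0.53% of loci (0.18% higher, 0.35% lower). In eil3-labelled shoots 7 were called, against 17.5% of loci (8.85% higher, 8.69% lower). In eil3 eil1-labelled shoots 19 were called, 2 higher and 17 lower, against 53.6% of loci (27.4% higher, 26.1% lower). SIP1-1 had 83.04, 87.8 and 90.1 CPM in eil1-labelled shoots and 100.2, 100.1 and 115 CPM in Col-0 shoots, without overlap; this call (-0.27 ± 0.060, edgeR adjusted p = 0.0439) held in 1 of 6 refits, that without eil1 -S replicate 3 (elsewhere adjusted p of up to 0.279), and the count was 3 without eil1 -S replicate 3. In eil3-labelled shoots SIP1-2, SIP2-1, PIP1-1 and NIP6-1 were lower and PIP2-8, PIP2-3 and TIP1-1 higher. The call of NIP6-1 held in 1 of 6 refits, that without Col-0 -S replicate 3, and that of PIP1-1 was lost without eil3 -S replicate 3. SIP2-1 had 21.96, 23.00 and 23.6 CPM in eil3-labelled shoots, against 32.6, 29.6 and 35.4 CPM in Col-0 shoots. PIP2-8 had 9.84, 10.5 and 9.84 CPM in eil3-labelled shoots, against 8.38, 7.06 and 6.96 CPM in Col-0 shoots. PIP2-3 had 12.2, 15.1 and 13.9 CPM in eil3-labelled shoots, against 8.94, 9.32 and 9.03 CPM in Col-0 shoots. None of the 3 overlapped. SIP2-1 differed there by -0.51 ± 0.11, PIP2-8 by 0.43 ± 0.10 and PIP2-3 by 0.60 ± 0.14 (edgeR adjusted p = 0.00267, 0.00564 and 0.00646). PIP1-1 was thus higher in eil3-labelled roots and lower in eil3-labelled shoots than in Col-0 at -S. In eil3 eil1-labelled shoots PIP1-1 differed by -1.15 ± 0.083, PIP1-5 by -1.13 ± 0.12 and PIP1-3 by -0.79 ± 0.10 (edgeR adjusted p = 5.19e-10, 8.37e-08 and 1.14e-06), and SIP1-1 and NIP5-1 were the higher ones. The call of NIP5-1 held in 1 of 6 refits, that without eil3 eil1 -S replicate 2, and that of SIP1-1 was lost without Col-0 -S replicate 1 or 2 or eil3 eil1 -S replicate 1. At +S edgeR called no aquaporin in shoots of any mutant-labelled line. For eil1 this stood against 1.26% of loci (0.415% higher, 0.843% lower). For eil3 it stood against 7.13% of loci (2.47% higher, 4.66% lower), and for eil3 eil1 against 7.54% of loci (2.84% higher, 4.7% lower). At an unadjusted p under 0.05 there were 1, 9 and 3, by DESeq2 0 each, and by limma 0, 0 and 1. The eil3 count was 1 without Col-0 +S replicate 2. Total-count scaling at -S gave 5 higher and 3 lower (18.6% and 4.32% of loci) in eil3 and 4 higher and 15 lower (35.1% and 19.7% of loci) in eil3 eil1, and the medians of all loci moved by 0.12 in both. At +S the loci called with it were 0.493% higher and 0.272% lower in eil1, 2.77% higher and 3.38% lower in eil3 and 4.85% higher and 2.52% lower in eil3 eil1, where 1 aquaporin was called, higher. In eil1 at -S, the loci called with RLE size factors were 0.152% higher and 0.493% lower. Without Col-0 -S replicate 3, 8 members were called in eil3 and 16 in eil3 eil1, where NIP1-1 and SIP2-1 lost their calls (adjusted p = 0.108 and 0.0851).

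**Figure D4:**
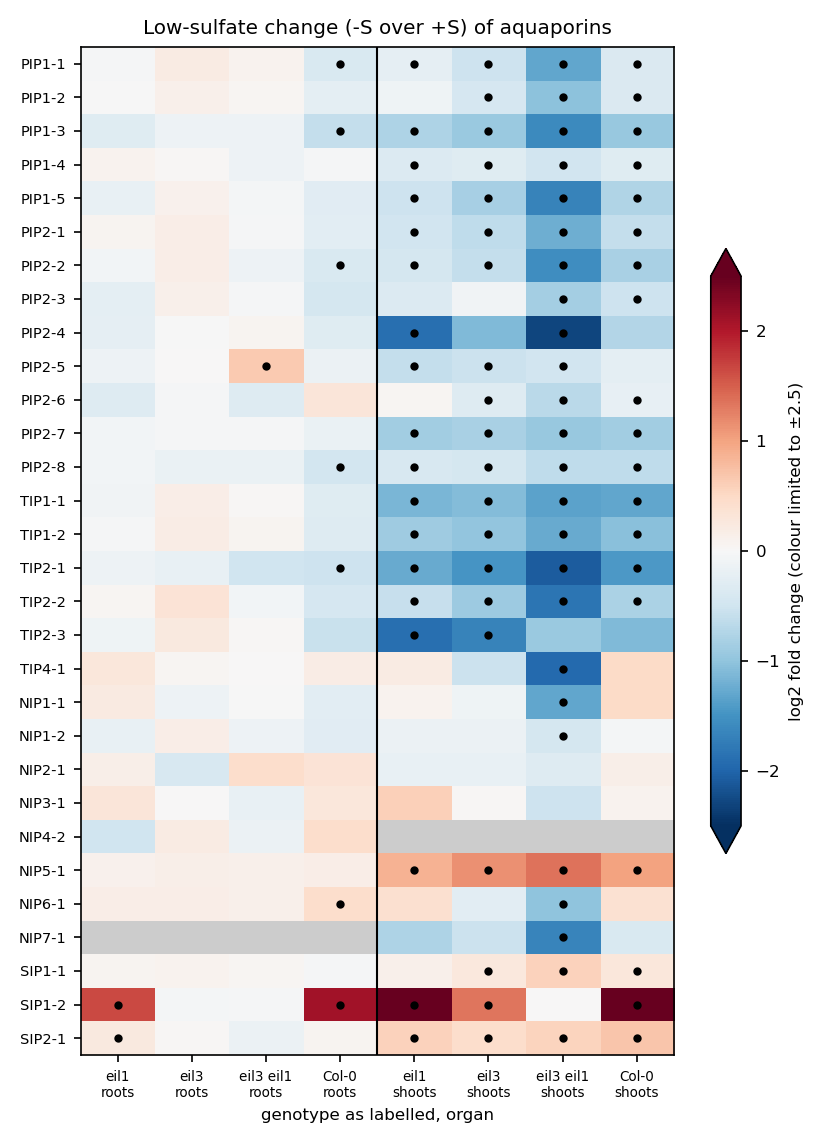
Log2 fold change (-S over +S) of the 30 aquaporins tested in at least 1 organ, for the 4 genotypes as labelled in roots (left of the line) and shoots (right); black dots mark edgeR adjusted p under 0.05 and grey cells were not tested. Blue cells with dots fill most PIP and TIP rows in shoots, from 15 lower calls in Col-0 and eil1 to 22 in eil3 eil1, while root columns hold 2, 0, 1 and 7 calls in eil1, eil3, eil3 eil1 and Col-0.

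Roots and shoots of Col-0 at +S differed for 26 of 30 members, 18 higher in roots and 8 lower, against 76.4% of loci (40.5% higher, 35.9% lower). PIP2-6, a channel of leaf veins, was the most shoot-biased, with 3.98, 2.17 and 2.905 CPM in roots and 285, 322 and 321 CPM in shoots (-7.11 ± 0.22, edgeR adjusted p = 8.38e-12). TIP4-1 had 82.95, 63.3 and 80.9 CPM in roots and 1.17, 1.11 and 1.24 CPM in shoots, and SIP2-1 86.1, 87.5 and 87.7 CPM in roots and 22.2, 19.2 and 19.2 CPM in shoots. NIP5-1, TIP4-1 and SIP2-1 were higher in roots by 2.72 ± 0.11, 5.56 ± 0.25 and 1.66 ± 0.077 (edgeR adjusted p = 8.46e-11, 2.39e-10 and 3.04e-10). TIP2-3 and PIP2-4 were higher in roots by 6.53 ± 0.34 and 5.18 ± 0.31, and TIP2-1 and NIP6-1 were lower in roots, with changes of -2.97 ± 0.19 and -2.05 ± 0.17. CPM above are scaled within an organ, while these changes come from a fit of both organs, in which total-count scaling gave 22 higher and 7 lower (64% and 21.7% of loci), with a shift of 0.55 in the median over loci. In Col-0 shoots at +S TIP1-2 stood at 2068 ± 29.9 TPM and TIP2-1 at 1278 ± 144 TPM, followed by PIP1-2 at 758 ± 48.9 TPM, none of the 3 overlapping with the next. Summed shoot aquaporin TPM in Col-0 was 4747 ± 375 at -S and 7297 ± 473 at +S, and in eil3 eil1-labelled shoots 3784 ± 159 at -S and 7441 ± 343 at +S. TIPs summed to 1923 ± 215 TPM at -S and 3766 ± 209 at +S in Col-0 shoots, PIPs to 2617 ± 178 at -S and 3422 ± 268 at +S, and SIPs to 169.8 ± 18.03 at -S and 83.8 ± 3.78 at +S.

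**Figure D5:**
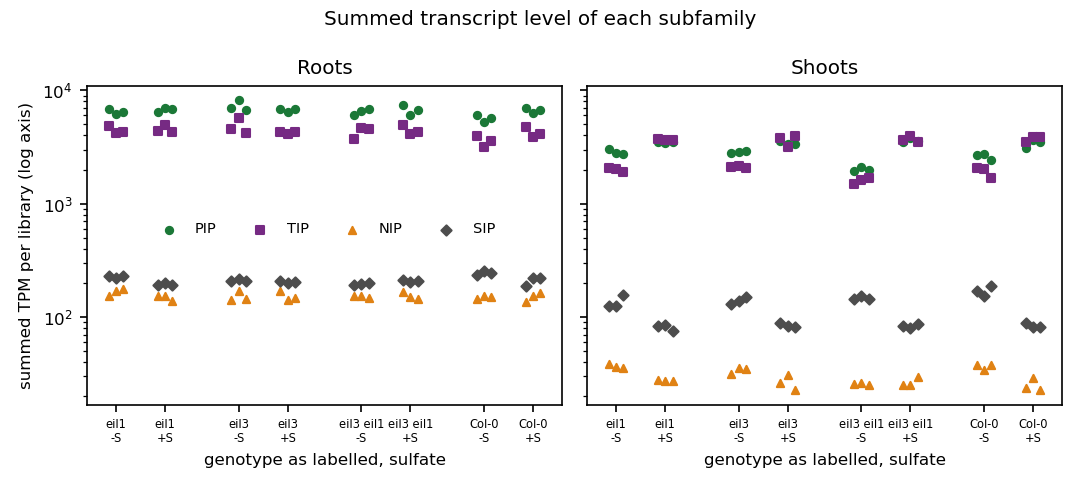
Summed TPM of each aquaporin subfamily per library (log axis) in roots (left) and shoots (right), by genotype as labelled and sulfate, -S left of +S. In shoots TIP sums are lower and SIP sums higher at -S in every genotype, and in Col-0 roots PIPs stood at 5657 ± 393 TPM at -S and 6695 ± 324 TPM at +S.

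The low-sulfate change of Col-0 differed between organs for 7 of 30 members, against 13.2% of loci (5.97% higher, 7.25% lower). The root response minus the shoot response was positive for TIP1-1 (1.00 ± 0.23), TIP2-1 (0.92 ± 0.25), TIP1-2 (0.71 ± 0.18) and PIP2-7 (0.70 ± 0.18), which fell in shoots. It was negative for SIP1-2, for NIP5-1 (-0.83 ± 0.15) and for SIP2-1 (-0.62 ± 0.11; 32.6, 29.6 and 35.4 CPM in shoots at -S), which rose in shoots (edgeR adjusted p from 0.000565 to 0.0289 over the 7). The count was 4 without shoot +S replicate 2, shoot -S replicate 3, root -S replicate 1 or root -S replicate 3. The calls of TIP2-1, TIP1-2 and PIP2-7 were lost in 7, 6 and 5 of the 12 refits without 1 library (adjusted p of up to 0.0745). Total-count scaling gave 4 higher and 4 lower (4.12% and 11.7% of loci), with a shift of -0.11 in the median over loci.

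Genes that work beside aquaporins were described from 4 further lists. Of 13 plasma membrane and vacuolar proton pumps, 12 were tested in Col-0 roots and none was called, against 9.03% of loci (0 also at an unadjusted p under 0.05 and by DESeq2 and limma). Of 7 boron exporters 5 were tested and 4 called, 2 higher and 2 lower, with a median of -0.09: BOR4 fell by 0.88 ± 0.10 and BOR1 by 0.32 ± 0.086, while BOR2 rose by 0.45 ± 0.089 (edgeR adjusted p = 4.30e-06, 0.019 and 0.00174). BOR5, named after its values were seen, rose by 1.65 ± 0.49 (edgeR adjusted p = 0.0355). BOR1 loads boron into the xylem, a step that follows entry through NIP5-1, and BOR4 exports boron from roots. Of 10 regulators of aquaporin trafficking, turnover or activity 9 were tested and 3 called, with a median of -0.0046. The ubiquitin ligases RMA1 and RMA2 fell by 0.35 ± 0.081 and 0.46 ± 0.12, and the kinase OST1, which phosphorylates PIP2-1 in guard cells, rose by 0.62 ± 0.11 (edgeR adjusted p = 0.00675, 0.0205 and 0.000899). Of 22 genes of the Casparian strip and suberin, the barrier that forces water through endodermal membranes, 3 of 22 tested were called (13.6%), all higher, near the 9.03% of loci, with a median of 0.07. These were the suberin enzymes FAR5, FAR4 and CYP86B1 (0.32 ± 0.071, 0.32 ± 0.081 and 0.26 ± 0.068; edgeR adjusted p = 0.00513, 0.0127 and 0.0149). In eil3-labelled roots the same lists had 0, 1, 0 and 1 members called, against 1.06% of loci.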

How the data were processed

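Libraries of 16 groups of roots or shoots, 3 each, were sequenced from a stranded mRNA kit. The deposited values are estimated counts per locus, for which the submitters' processing notes name kallisto 0.43.1, Trimmomatic 0.36, FastQC and the build TAIR10; the strand setting is not given in the sources used here. Of the estimated counts 7.79% were not whole, and all were rounded. The 48 deposited columns of TPM were not used: for TPM, rounded counts were divided by the deposited effective lengths and rescaled, also for limma. Totals of 26615772 to 38269946 per library limit the precision of low members. The limit given for a count of 0 covers counting error only, while SD and SE also hold the spread between libraries.

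edgeR 4.0.16 (quasi-likelihood F test, TMM, filterByExpr; R 4.3.3) tested 21954 root loci and 21697 shoot loci, each in 1 fit of 24 libraries and 8 groups, and 22301 loci in 12 Col-0 libraries for organ comparisons, 28 comparisons in all; p-values were adjusted over all loci of a fit. The SE is the absolute log2 change over the square root of F. Members, gene lists and the rules below were chosen with earlier results of these data known. Values in every library are given for members called in Col-0 roots, in at least 2 root responses or in a root difference of responses, and for the 2 highest of PIPs, TIPs and NIPs; elsewhere for the 4 smallest p among the called in each comparison and, in at least 1 comparison, for members called in opposite directions. Root columns carry sample titles; shoot columns only group and number, so shoot replicates are named by column. Alternatives were RLE size factors, total-count scaling, no filter, a replicate block in roots, only the groups compared, DESeq2 1.42.0, limma 3.58.1 (log2 scale, TPM + 1), and leaving out each library once. The scripts were tested on simulated data with known changes. Python 3.11.15, numpy 2.4.6, pandas 2.3.3, Biopython 1.88 and matplotlib 3.10.9 were also used.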

Additional observations from a re-analysis of the deposited data

Results flagged for a closer look

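Members whose low-sulfate response differed between groups by the test of the difference itself are gathered here, as log2 differences. In roots the response of SIP1-2 differed from Col-0 by -2.15 in eil3 and -2.13 in eil3 eil1, and in eil3 eil1 those of PIP2-5 and SIP2-1 differed by 0.80 and -0.21. As given above, the call of SIP2-1 was lost on leaving out any single library compared. In shoots SIP1-2 differed by -2.17 in eil3 and -3.51 in eil3 eil1. In eil3 eil1 shoots the response was also more negative for PIP1-1 (-0.94), PIP1-2 (-0.66), PIP1-3 (-0.66), PIP1-5 (-0.92), PIP2-1 (-0.63), PIP2-2 (-0.74), PIP2-6 (-0.48), TIP2-1 (-0.64), TIP2-2 (-1.04), TIP4-1 (-2.43), NIP1-2 (-0.40) and NIP6-1 (-1.39), and more positive for SIP1-1 (0.29).

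Between the organs of Col-0, roots minus shoots, the response differed for PIP2-7 (0.70), TIP1-1 (1.00), TIP1-2 (0.71), TIP2-1 (0.92), NIP5-1 (-0.83), SIP1-2 (-1.43) and SIP2-1 (-0.62). The calls of PIP2-7, TIP1-2 and TIP2-1 were each lost in some of the refits described above.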

How the results depend on the processing

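Counts are of aquaporins called. In Col-0 roots DESeq2 gave 11 and a fit of only the groups compared 4; in eil1 roots that fit gave 1; in eil3 eil1 roots total-count scaling, DESeq2 and limma gave 2, 3 and 2. The root difference from Col-0 gave 2 for eil3 with total-count scaling or no filter and 5 with DESeq2, and 5 for eil3 eil1 with DESeq2. Against Col-0 roots at -S, eil1 gave 0 with only the groups compared, 4 with DESeq2 and 1 with limma; at +S eil1 gave 1 with only the groups compared or limma, eil3 gave 0 and 2 with the same pair, and eil3 eil1 gave 2 with no filter or only the groups compared and 3 with DESeq2. Against Col-0 shoots, eil1 at -S gave 0 with total-count scaling, no filter, only the groups compared or limma, and eil3 eil1 at +S gave 1 with total-count scaling or limma. The cause of these shifts was not tested.

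Leaving out 1 library gave ranges of 3 to 10 (Col-0 roots), 1 to 2 (root difference of eil3), 0 to 2 (eil1 against Col-0 roots at -S, and at +S), 0 to 4 (eil3 at +S), 0 to 1 (eil3 eil1 at +S), 0 to 3 (eil1 against Col-0 shoots at -S), 0 to 1 (eil3 against Col-0 shoots at +S) and 4 to 8 (organ difference); every other comparison kept its count within 1.5 times. PIP2-7 in Col-0 roots against shoots had -0.61 and changed sign to 0.13 with limma (adjusted p = 0.266). Every other named value that was called kept its direction under each setting. The direction of values not called was not compared.

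A replicate block in roots gave 2 members for eil3 eil1 against Col-0 at +S and left every other root count within 1.5 times. Same-numbered root samples correlated in their deviations at -0.0045 to 0.143. Differently numbered samples were not compared, so these values cannot decide whether the numbers pair samples. Shoot columns carry no sample-level number, and no paired analysis was possible there. Members near 1 CPM or below carry too few counts for small changes to be detected.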
